A study of Rattus norvegicus with 12 samples.

Results

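The genes described here are those of the hepatic fatty acid pathway governed by PPAR alpha, 7 genes in all: the receptor gene Ppara, the omega hydroxylases Cyp4a1 and Cyp4a3, the peroxisomal enzyme Ehhadh, the thioesterase Acot1, the ketone body enzyme Bdh1 and the kinase Pdk4. They were chosen by name, and every probe set that the array's annotation gives to exactly 1 of these symbols was taken, which left 9 of 31042 probe sets and 7 of 14217 genes. Bdh1 and Pdk4 had 2 probe sets each. The study followed chemical hepatocarcinogenesis in male adult Sprague-Dawley rats, with 12 Affymetrix arrays in 4 groups of 3. Rats of the DEN group received diethylnitrosamine (DEN), an alkylating liver carcinogen, intraperitoneally at 70 mg/kg weekly for 10 weeks, and control rats received distilled water. The hepatitis, cirrhosis and hepatocellular carcinoma (HCC) groups were killed at week 5, weeks 13 to 14 and weeks 23 to 24 after DEN treatment, and no source used here gives a time for the controls. As worded, week 5 may fall within the 10 weeks of injections, so the stages may differ in total dose. All groups had the same semipurified basal diet. The series design calls the last group HCC tissue and the others liver, whereas the tissue field reads liver on every sample. Whether every array came from its own rat is not stated, and the p-values therefore cover only the spread among these samples, which may be technical.

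PPAR alpha is a ligand-activated nuclear receptor that, as a partner of the retinoid X receptor, switches on fatty acid oxidation in the liver during fasting and on exposure to fibrate drugs. Its targets include microsomal omega hydroxylases, the peroxisomal beta-oxidation enzymes, acyl-CoA thioesterases, ketone body synthesis and Pdk4, which restrains the use of pyruvate as a fuel. In rats several of these genes are abundant in hepatocytes, and Cyp4a and Acot1 respond strongly to peroxisome proliferators.

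In HCC tissue 5 of the 7 genes fell against control liver: Cyp4a1, Cyp4a3, Ehhadh, Bdh1 and Pdk4, with differences of -1.62 to -3.91 on the scale of log2(intensity + 16). Of all genes tested 18.7% were called lower in that comparison. At the earlier stages few moved. Pdk4 rose in hepatitis and in cirrhosis, and no other gene of the 7 passed the test there, although Acot1 and Bdh1 came close to it in hepatitis. Cirrhosis against hepatitis gave no call. Ppara was dim on every array and passed the test in none of the 6 comparisons between groups.

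Median intensity was 28.69 to 30.94 on the 12 arrays, and 3 arrays per group limit the precision of every value. Replicates correlated across genes at 0.937 to 0.959 in HCC, against 0.984 to 0.997 in each other group. Of 11 hepatocyte markers 5 fell in HCC, and their mean level was 11.86 to 12.56 there, against 12.65 to 12.71 in control livers, 12.71 to 12.81 at hepatitis and 12.65 to 12.70 at cirrhosis (log2). The median HCC difference of these markers from control was -0.61, and the lowest group mean of any of them was an intensity of 1064. Mean levels of 6 cholangiocyte markers were 5.47 to 5.60 in control livers, 5.67 to 7.03 at hepatitis, 6.25 to 6.32 at cirrhosis and 5.99 to 8.79 in HCC, and 2 of the 6 rose in HCC. All 5 markers of sinusoidal endothelium and 4 of 7 of Kupffer cells fell in HCC, and 7 of 8 proliferation genes rose. GAPDH control probes at the 3' end exceeded those at the 5' end by 1.35, 2.43 and 3.14 on HCC replicates 1, 2 and 3 and 0.38 to 1.02 on the other arrays (log2). The part of cell makeup and RNA quality in the HCC results was not tested. In such bulk samples fewer cells of a type and less RNA per cell cannot be told apart.

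**Figure D1:**
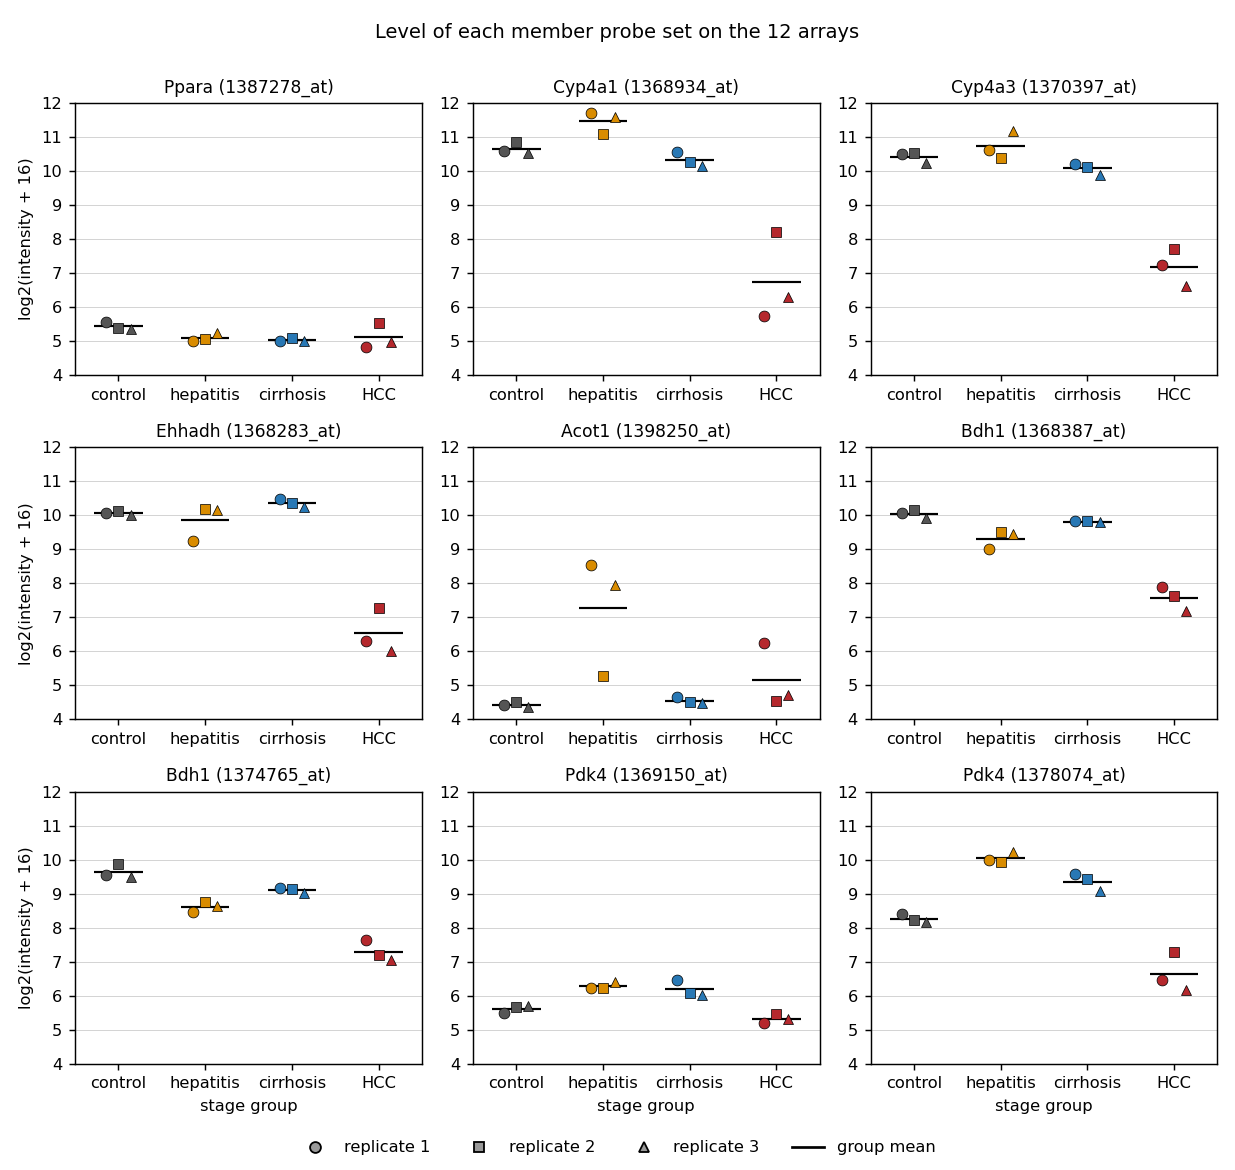
Level of each of the 9 probe sets on the 12 arrays as log2(intensity + 16), by stage group. Symbols are replicates and lines are group means. Cyp4a1, Cyp4a3, Ehhadh and both probe sets of Bdh1 and of Pdk4 lie lowest on the 3 HCC arrays. Acot1 is spread widest in hepatitis, from 23 to 359 in intensity.

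Ppara encodes the receptor itself. Its probe set read 30.7, 26.3 and 25 on the control arrays, 16.1, 17.4 and 22.1 in hepatitis, 16.3, 17.7 and 16.1 in cirrhosis and 12.6, 30.1 and 15.4 in HCC (intensities of replicates 1, 2 and 3). The hepatitis and cirrhosis arrays all lay below the controls, whereas HCC replicate 2 lay among them. The differences from control were -0.33 ± 0.15 in hepatitis (log2 with its SE, 3 arrays per group; limma adjusted p = 0.309), -0.40 ± 0.15 in cirrhosis (adjusted p = 0.217) and -0.32 ± 0.15 in HCC (adjusted p = 0.124). None passed the threshold of 0.05. These intensities lie near or below the median of the arrays, and the added 16 understates a change at such levels. Without HCC replicate 2 all 3 differences passed, at adjusted p = 0.0417, 0.0245 and 0.00122, with the HCC difference at -0.53. Calls over all genes rose as well without that array, from 568, 475 and 5501 to 1001, 791 and 6332 in these comparisons.

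Cyp4a1 encodes the main fatty acid omega hydroxylase of rat liver and is a classical marker of PPAR alpha activity. Its intensity was 1535, 1825 and 1475 in control, 3357, 2164 and 3042 in hepatitis, 1495, 1209 and 1129 in cirrhosis and 37.2, 278 and 63.5 in HCC. The 3 hepatitis arrays were all above the controls, and the HCC arrays lay far below every other array. In HCC Cyp4a1 fell by 3.91 ± 0.50 against control (limma adjusted p = 0.000356), from 1612 ± 187 to 126 ± 132 (intensity, SD, n = 3). It also fell by 4.71 against hepatitis (adjusted p = 0.000141) and fell by 3.58 against cirrhosis (adjusted p = 0.000533). In hepatitis the difference from control was 0.80 ± 0.50 and in cirrhosis -0.34 ± 0.50, neither past the threshold (adjusted p = 0.488 and 0.865). The order of levels was hepatitis, control, cirrhosis and HCC, and only the step from cirrhosis to HCC passed. Without HCC replicate 2, the array with the highest Cyp4a1 of its group, the hepatitis difference passed at adjusted p = 0.0476.

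Cyp4a3 encodes a second omega hydroxylase and is next to Cyp4a1 on chromosome 5, with no other protein-coding gene of the RefSeq annotation between them. Its intensity was 1427, 1459 and 1202 in control, 1552, 1333 and 2315 in hepatitis, 1179, 1101 and 939 in cirrhosis and 136, 192 and 81.4 in HCC. Hepatitis overlapped with control, cirrhosis lay just below it and HCC lay far below. Against control it fell by 3.24 ± 0.27 in HCC (limma adjusted p = 4.58e-05), with 0.31 ± 0.27 in hepatitis (adjusted p = 0.663) and -0.34 ± 0.27 in cirrhosis (adjusted p = 0.64). It fell by 3.55 against hepatitis (adjusted p = 2.68e-05) and fell by 2.90 against cirrhosis (adjusted p = 6.8e-05). Levels ran from hepatitis through control and cirrhosis to HCC, as for Cyp4a1, and only the last step passed.

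A further probe set is shared by Cyp4a3 and its paralog Cyp4a2, so that the 2 genes cannot be told apart on it, and it was looked at after its values were seen. It read 1699, 1707 and 1702 in control, 2589, 2992 and 3030.4 in hepatitis, 2385, 2265 and 1872 in cirrhosis and 249, 379 and 114 in HCC. All arrays of both early stages lay above the controls, at differences of 0.74 (adjusted p = 0.287) and 0.34 (adjusted p = 0.711), and in HCC it fell by 2.85 (adjusted p = 0.000256; limma on all probe sets). The promoters of the pair are shown because the genes share that probe set. Among the windows searched, only theirs held an exact match to AGGTCA, a nuclear receptor half-site. Variants of the half-site were not searched. They are RefSeq sequences of the GRCr8 build, 250 bases before to 50 after the start of each gene, on the minus strand at chr5:134352187-134352486 for Cyp4a3 and chr5:134170859-134171158 for Cyp4a2. Capitals mark the half-site AGGTCA.
Cyp4a3: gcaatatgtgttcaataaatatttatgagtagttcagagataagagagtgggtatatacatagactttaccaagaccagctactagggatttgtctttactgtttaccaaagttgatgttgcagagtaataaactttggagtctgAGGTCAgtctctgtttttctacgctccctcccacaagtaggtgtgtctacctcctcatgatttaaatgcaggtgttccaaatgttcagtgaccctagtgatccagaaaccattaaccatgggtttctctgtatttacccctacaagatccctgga
Cyp4a2: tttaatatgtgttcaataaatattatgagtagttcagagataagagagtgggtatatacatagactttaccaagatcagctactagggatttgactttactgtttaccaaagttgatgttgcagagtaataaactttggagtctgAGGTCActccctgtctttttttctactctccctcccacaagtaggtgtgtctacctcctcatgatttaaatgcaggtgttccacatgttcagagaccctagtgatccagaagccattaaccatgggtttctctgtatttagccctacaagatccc
An alignment of the windows had 284 identical bases in 305 columns, or 93.1%. The half-site begins at -105 in both, counted from the start of the gene. AGGTCA, searched on both strands, occurred in 16.2% of 33469 RefSeq promoter windows of the same length. Windows were given for 6 of the 7 genes, all but Cyp4a1, and Cyp4a3 was the only one of the 6 with a match. The direct repeat AGGTCANAGGTCA, which contains 2 such half-sites, was found in none of the 6 and in 0.0538% of all windows. A match is a string of letters and not a measured binding site.

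Ehhadh encodes the bifunctional enzyme that carries out the hydratase and dehydrogenase steps of peroxisomal beta-oxidation. Its intensity was 1061, 1107 and 1010.3 in control, 593, 1153 and 1126 in hepatitis, 1399, 1308 and 1212 in cirrhosis and 63.9, 139.6 and 48.8 in HCC. Cirrhosis lay above control on all 3 arrays, hepatitis replicate 1 lay apart from its group on the low side, and the HCC arrays were the lowest. Ehhadh fell by 3.53 ± 0.32 in HCC (limma adjusted p = 6.62e-05), from 1059 ± 48.5 to 84.1 ± 48.7 (intensity, SD, n = 3). It fell by 3.83 against cirrhosis (adjusted p = 4.3e-05) and fell by 3.33 against hepatitis (adjusted p = 8.53e-05). The other differences were -0.20 ± 0.32 in hepatitis (adjusted p = 0.851), which became 0.10 without hepatitis replicate 1, and 0.30 ± 0.32 in cirrhosis (adjusted p = 0.77). Cirrhosis was highest, then control, hepatitis and HCC, and in the fit of all 12 arrays only the steps to HCC passed. With only control and cirrhosis in the fit, the cirrhosis difference of 0.30 passed (limma adjusted p = 0.0286).

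Acot1 encodes a cytosolic thioesterase that releases free fatty acids from their coenzyme A esters and is barely expressed in untreated rat liver. It read 5.24, 6.72 and 4.8 in control, 359, 23 and 234 in hepatitis, 9.08, 6.85 and 6.25 in cirrhosis and 59.4, 7.08 and 10.6 in HCC. All 3 hepatitis arrays lay above all controls, but replicate 2 lay far below the other two of its group, and HCC replicate 1 lay above the rest of its group. The hepatitis difference of 2.84 ± 0.73 missed the threshold (limma adjusted p = 0.065), and without hepatitis replicate 2 it was 3.83 (adjusted p = 0.00303). It passed also without HCC replicate 1 (adjusted p = 0.0394), but not with any other array left out (adjusted p = 0.0525 to 0.229). Acot1 fell by 2.10 from hepatitis to HCC (adjusted p = 0.0488), a call lost on leaving out any of 10 of the 12 arrays, all but hepatitis replicate 2 and HCC replicate 1 (adjusted p up to 0.162). Cirrhosis and HCC differed from control by 0.11 (adjusted p = 0.98) and 0.73 (adjusted p = 0.473). Hepatitis replicate 1 and HCC replicate 1, the highest in Acot1 within their groups, were also the highest in the mean of the 6 cholangiocyte markers, at 7.03 and 8.79. Hepatitis replicates 2 and 3, at 23 and 234 in Acot1, had marker means of 5.67 and 5.77, and the cirrhosis arrays had means of 6.25 to 6.32 with Acot1 at 6.25 to 9.08. The part of those cells was not tested.

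Acot1 is next to its paralog Acot2, a mitochondrial thioesterase, on chromosome 6, and the annotation gives 1 probe set to both. These paralog probe sets were looked at after their values were seen. The shared one read 27.4, 22.9 and 24.2 in control and 107, 38.7 and 100.2 in hepatitis (difference 1.18, limma adjusted p = 0.0525). The brightest Acot2 probe set read 399.6, 349 and 285 in control and 1062, 398 and 939 in hepatitis, a difference of 1.07 (adjusted p = 0.135). Hepatitis replicate 2 was again the lowest of its group on both. A dimmer Acot2 probe set rose by 1.05 in hepatitis (adjusted p = 0.0285), and the remaining one differed by 1.10 (adjusted p = 0.0724). Acot3, a further thioesterase, rose by 0.71 ± 0.12 (adjusted p = 0.0111), at 47.6, 36.4 and 38.2 against 17.1, 22.8 and 16.4 in control. Cross-hybridisation among such close paralogs was not tested. The promoter windows of Acot1 and Acot2 had 47.8% identity.

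**Figure D2:**
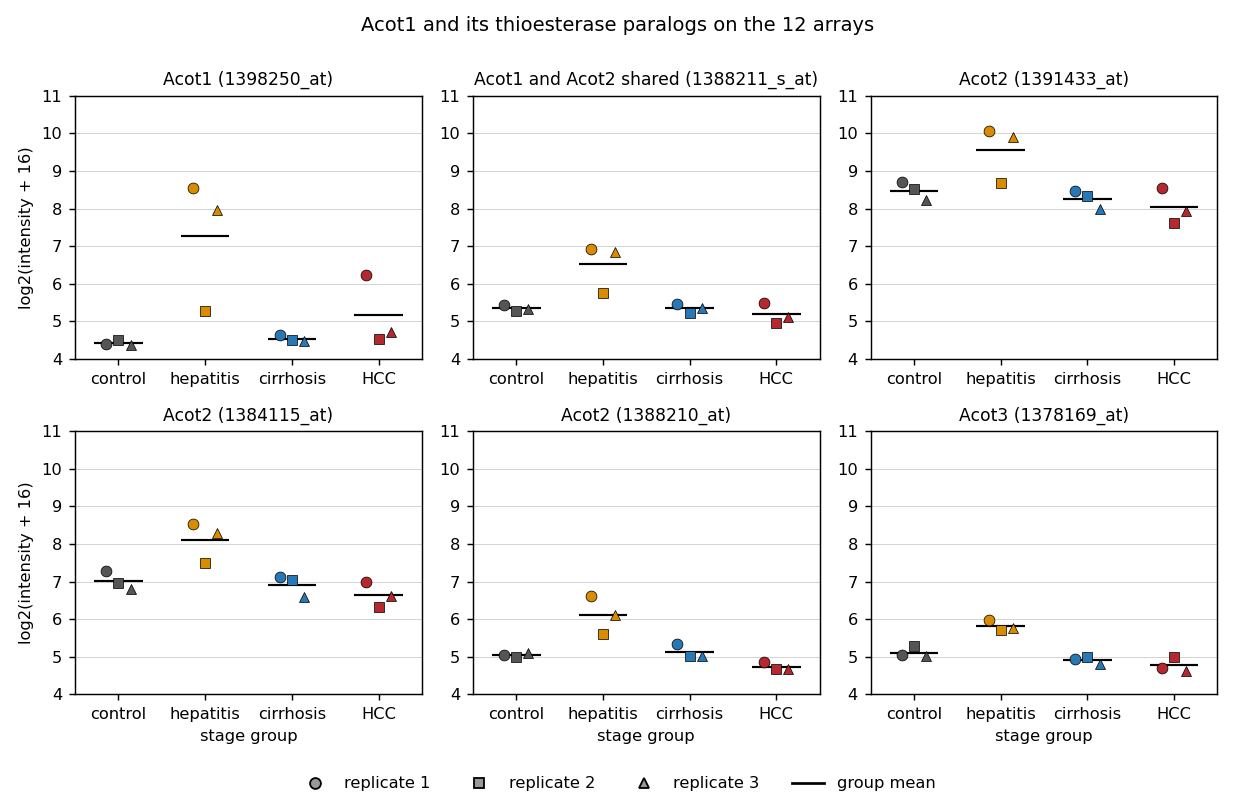
Level of Acot1, Acot2, Acot3 and the probe set shared by Acot1 and Acot2 on the 12 arrays, as log2(intensity + 16) by stage group, with replicates as symbols and group means as lines. Hepatitis holds the highest group mean in each panel, and hepatitis replicate 2 lies below replicates 1 and 3, as with 23 against 359 and 234 for Acot1.

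Bdh1 encodes the mitochondrial dehydrogenase that interconverts acetoacetate and beta-hydroxybutyrate, the last step of ketone body synthesis. Its brighter probe set read 1056, 1132 and 952 in control, 499, 709.8 and 682 in hepatitis, 894, 891 and 876 in cirrhosis and 222, 181 and 129.6 in HCC. No 2 groups overlapped, and levels went down from control through cirrhosis and hepatitis to HCC. Bdh1 fell by 2.48 ± 0.18 in HCC against control (limma adjusted p = 2.52e-05), fell by 1.75 against hepatitis (adjusted p = 0.000109) and fell by 2.25 against cirrhosis (adjusted p = 3.41e-05). The hepatitis difference of -0.73 ± 0.18 just missed the threshold (adjusted p = 0.052), and it passed without HCC replicate 1, 2 or 3 (adjusted p = 0.0217, 0.0472 and 0.018). The cirrhosis difference was -0.23 ± 0.18 (adjusted p = 0.626).

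The second Bdh1 probe set gave the same order of groups. It read 741, 915 and 702 in control, 334, 415 and 385 in hepatitis, 561, 544 and 507 in cirrhosis and 182, 130.5 and 115 in HCC. In the fit of all probe sets it fell by 1.02 ± 0.15 in hepatitis (limma adjusted p = 0.00913) and fell by 2.35 ± 0.15 in HCC (adjusted p = 2.75e-05), with -0.53 in cirrhosis (adjusted p = 0.0987). The 2 probe sets had the same sign in hepatitis, and only the second passed. Over all probe sets 2.95% were called in hepatitis, 3.62% in cirrhosis and 29.8% in HCC against control, and 0.651%, 29% and 32.2% in cirrhosis against hepatitis, HCC against hepatitis and HCC against cirrhosis.

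Pdk4 encodes the kinase that phosphorylates and switches off the pyruvate dehydrogenase complex, which spares glucose when fatty acids are burned. Its brighter probe set read 318, 282 and 269.7 in control, 1001, 967 and 1176 in hepatitis, 752, 668 and 521 in cirrhosis and 72.2, 138 and 56.5 in HCC. The 4 groups did not overlap. Pdk4 rose by 1.80 ± 0.24 in hepatitis (limma adjusted p = 0.00461), from 290.2 ± 25.3 to 1048 ± 112 (intensity, SD, n = 3), and by 1.10 ± 0.24 in cirrhosis (adjusted p = 0.0436). It then fell by 1.62 ± 0.24 in HCC against control (adjusted p = 0.000802), fell by 3.41 against hepatitis (adjusted p = 2.13e-05) and fell by 2.72 against cirrhosis (adjusted p = 5.77e-05). Hepatitis and cirrhosis, neighbours in that order, differed by -0.69 without passing (adjusted p = 0.275). The cirrhosis call was lost on leaving out any 1 of the 9 control, hepatitis and cirrhosis arrays (adjusted p = 0.0513 to 0.159).

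The second Pdk4 probe set was dim, at 28.5, 35.2 and 35.6 in control, 59.4, 59.4 and 67.9 in hepatitis, 71.4, 51.9 and 48.5 in cirrhosis and 20.6, 27.9 and 24.1 in HCC. It rose by 0.67 ± 0.12 in hepatitis (limma on all probe sets, adjusted p = 0.0179) and by 0.57 ± 0.12 in cirrhosis (adjusted p = 0.0342). Its HCC difference of -0.29 ± 0.12 did not pass (adjusted p = 0.0946), although all 3 HCC arrays lay below the controls. Both probe sets were thus called higher in hepatitis and cirrhosis, and the dim one was not called in HCC against control.

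**Figure D3:**
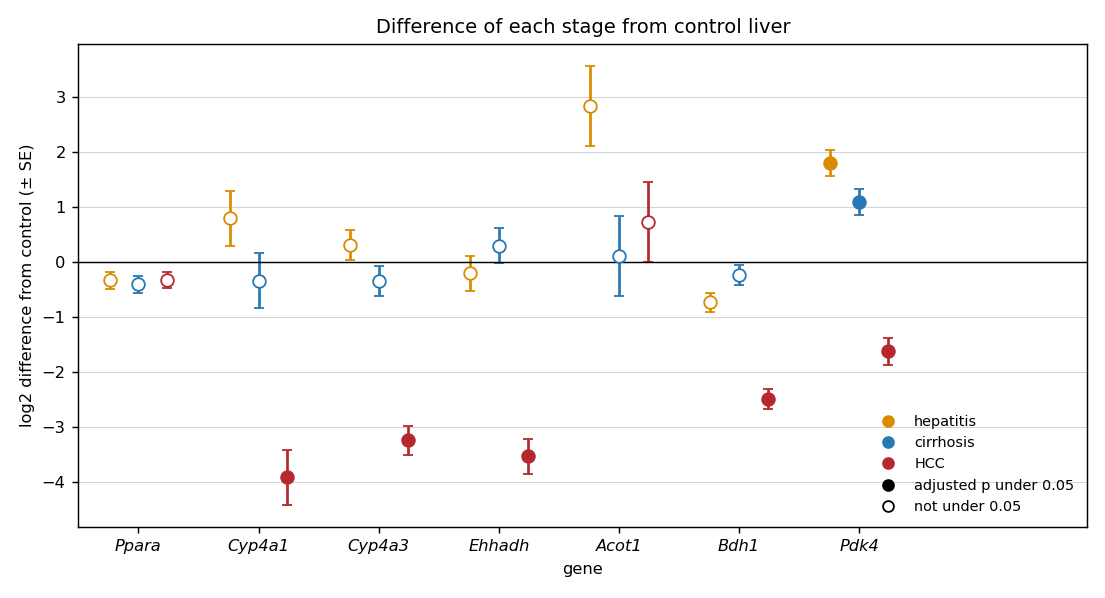
Difference of hepatitis, cirrhosis and HCC from control liver for the 7 genes, 1 probe set a gene, on the log2(intensity + 16) scale with standard errors. Filled points passed adjusted p under 0.05. The 5 filled HCC points lie between -1.62 and -3.91, and Pdk4 alone is filled at the early stages, at 1.80 and 1.10.

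Counted over the 7 genes, 1 rose and 0 fell in hepatitis, where 4% of all 14217 genes were called, 1.87% higher and 2.12% lower. In cirrhosis 1 rose and 0 fell, against 3.34% of all genes called, 1.54% higher and 1.8% lower. In HCC 0 rose and 5 fell, against 38.7% called, 20% higher and 18.7% lower, and the median difference of the 7 was -2.48 where that of all genes was 0.01. The 3 comparisons share their control arrays. HCC against hepatitis gave 6 lower of 7, with 34.9% of all genes called, 17.8% higher and 17% lower. HCC against cirrhosis gave 5 lower, with 37% called, 19.4% higher and 17.6% lower. For cirrhosis against hepatitis limma called 0 of 7, with 5 at an unadjusted p under 0.05 and 4 called when arrays were weighted by their quality, while 0.957% of all genes were called, 0.394% higher and 0.563% lower. The early counts shift with single arrays, and so do the counts over all genes, 568 in hepatitis and 475 in cirrhosis. In hepatitis 2, 3, 4 and 2 genes were called without hepatitis replicate 2 and HCC replicates 1, 2 and 3. In those fits 488, 1078, 1001 and 836 of all genes were called. In cirrhosis 2 were called without HCC replicate 2, where 791 of all genes were, and 0 without any 1 control, hepatitis or cirrhosis array. In cirrhosis against hepatitis 1 was called without hepatitis replicate 2 and 2 without HCC replicate 2. Over all genes the calls there went from 136 to 213 and 333, and to 962 with array weights. A test of any difference among the 4 groups passed for every gene but Ppara, from adjusted p = 4.93e-05 for Bdh1 to 0.0309 for Acot1 (limma F test, with 0.172 for Ppara).

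By the arrays themselves, the 3 hepatitis arrays lay all above the 3 controls for 3 genes and all below for 2, where 30.7% of all genes had groups that did not overlap. For cirrhosis it was 2 above and 3 below (37.4% of all genes), and for HCC 1 above, Acot1, and 5 below (46.5%). Cirrhosis lay all above hepatitis for 2 genes and all below for 4 (26.8%). HCC lay all below hepatitis for 5 (40.7%) and all below cirrhosis for 5 (47%). In the first 2 comparisons and for cirrhosis against hepatitis most of these separated genes did not pass the test.

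HCC replicate 2 had the highest intensity of its group in Ppara, Cyp4a1, Cyp4a3, Ehhadh and Pdk4, and replicate 1 in Acot1 and Bdh1. HCC replicate 2 also had the highest mean of hepatocyte markers in its group, 12.56 against 12.08 and 11.86. Without it the count of genes lower in HCC than in control was 6, Ppara included, and without either of the other arrays of that group it was 5. Over all genes 5501 were called in that comparison. Without HCC replicates 1, 2 and 3 the all-gene counts were 5430, 6332 and 4843.

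The other genes of the pathway were taken from 8 lists, which hold 145 measured genes besides the 7. In hepatitis 5 of them rose and 6 fell (7.59% called, beside 4% of all genes), in cirrhosis 3 rose and 12 fell (10.3%, beside 3.34%), and in HCC 13 rose and 95 fell (74.5%, beside 38.7%). Their median differences from control were -0.02, -0.13 and -0.95. Most of the 145 were thus called lower in HCC tissue. The lists were chosen with earlier results of these data known, which may raise such shares. At both early stages the share called was above that of all genes in the fit of all 12 arrays. These early counts shift with single arrays, and so do the counts over all genes, 568 in hepatitis and 475 in cirrhosis. In hepatitis 3 of the 145 were called without control replicate 1 or 2, 4 without hepatitis replicate 1 and 18 without HCC replicate 2. Over all genes 204, 180, 234 and 1001 were called without control replicate 1, control replicate 2, hepatitis replicate 1 and HCC replicate 2. In cirrhosis 1 to 8 were called when any 1 control or cirrhosis array was left out. Without control replicate 2 it was 1 of the 145, beside 121 of all 14217 genes, a share no longer above that of all genes. With any 1 hepatitis or HCC array left out 11 to 20 were called. Over all genes the counts were 97 to 260 and 349 to 886. With array weights 34 were called in hepatitis and 57 in cirrhosis, and with only the 2 groups in the fit 17 and 54. Over all genes these settings gave 2159 and 3081, and 898 and 2695. Control replicate 2 had the only raised mean of skeletal muscle markers, 7.49 against 5.35 to 5.49 on the others.

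**Figure D4:**
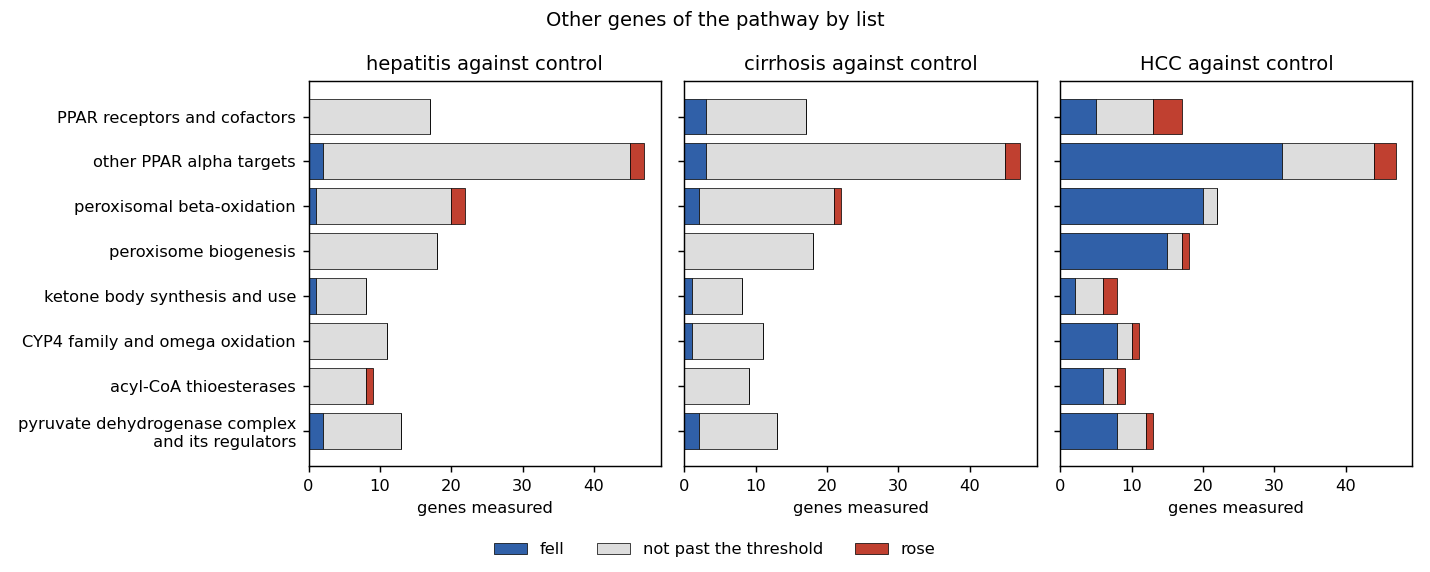
Number of measured genes of each of the 8 pathway lists that were called higher, called lower or not called, in hepatitis, cirrhosis and HCC against control (limma adjusted p under 0.05). In HCC 20 of 22 peroxisomal beta-oxidation genes and 15 of 18 peroxisome biogenesis genes are lower, while the receptor list has 4 higher and 5 lower of 17.

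Of 17 receptors and cofactors 4 rose and 5 fell in HCC, shares near the 20% and 18.7% of all genes called higher and lower. At the earlier stages 3 fell in cirrhosis, and limma called 0 in hepatitis, with 4 at an unadjusted p under 0.05. Lpin1, a phosphatidate phosphatase and coactivator of PPAR alpha, fell by 2.43 in cirrhosis (adjusted p = 0.0422) and fell by 3.35 in HCC (adjusted p = 0.00106), with -2.11 in hepatitis (adjusted p = 0.0614). Its relative Lpin2 fell by 1.01 in cirrhosis (adjusted p = 0.0333). The partner receptor Rxrg fell by 1.24 in HCC (adjusted p = 0.0274), and the acetyltransferase Ep300 rose by 1.23 (adjusted p = 0.000151).

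Of 47 other PPAR alpha targets 31 fell and 3 rose in HCC, and 2 fell and 2 rose in hepatitis. Cyp8b1, the sterol hydroxylase that sets the balance of bile acids, fell by 4.24 ± 0.34 in HCC (limma adjusted p = 3.88e-05), and the plasma triglyceride regulator Apoa5 fell by 4.23 ± 0.51 (adjusted p = 0.000275). Fgf21, a fasting hormone that PPAR alpha induces, fell at all 3 stages, with differences of -3.24, -3.13 and -3.37 (adjusted p = 0.0256, 0.0369 and 0.00309). Lipoprotein lipase (Lpl) rose at all 3, by 2.56, 2.32 and 1.70 (adjusted p = 0.02, 0.036 and 0.0195). Fgf21 and Lpl thus lay on opposite sides of control at all 3 stages. The control level of Fgf21 was uneven, at 646 ± 350.4 (intensity, SD, n = 3).

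Peroxisomal genes gave the most uniform picture in HCC. Of 22 genes of peroxisomal beta-oxidation 20 fell and 0 rose, with a median of -1.38. The largest were Hao2, a hydroxy acid oxidase, which fell by 3.55 (limma adjusted p = 7.58e-05), the branched-chain acyl-CoA oxidase Acox2, at -3.46 (adjusted p = 0.000134), and the racemase Amacr, at -3.43 (adjusted p = 5.91e-05). Hacl1, the lyase of alpha-oxidation, fell by 1.29 in hepatitis (adjusted p = 0.0467) and fell by 3.03 in HCC (adjusted p = 0.000108). The enoyl- and dienoyl-CoA isomerases Eci2 and Ech1, chosen after their values were seen, rose in hepatitis by 0.84 (adjusted p = 0.00975) and 0.89 (adjusted p = 0.0204) and fell in HCC, with differences of -1.97 and -2.56.

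Of 18 peroxisome biogenesis genes 15 fell and 1 rose in HCC, with a median of -0.80. In hepatitis and in cirrhosis limma called 0 of the 18, with 6 and 5 at an unadjusted p under 0.05. The membrane proteins Pxmp2 and Pxmp4 fell in HCC, with differences of -2.61 and -1.79. The membrane assembly factor Pex16 fell by 1.91 (limma adjusted p = 1.59e-05), and the peroxisomal protease Lonp2 fell by 1.50 (adjusted p = 0.000365).

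Of 8 ketone body genes measured 2 rose and 2 fell in HCC, with a median of -0.23, and 1 fell at each early stage. Acat1, the thiolase that begins ketone body synthesis, fell by 1.16 in HCC (adjusted p = 0.000443), and the mitochondrial deacetylase Sirt3 fell by 1.02 in cirrhosis (adjusted p = 0.0114) and fell by 1.59 in HCC. Oxct1, the transferase with which tissues other than liver use ketone bodies, rose by 1.11 in HCC (adjusted p = 0.0034), from 63.9 ± 15.1 to 161 ± 64.9 (intensity, SD, n = 3; limma). The transporter Slc16a6 rose by 1.69 (adjusted p = 0.00107). Thus in HCC Bdh1 and Acat1 were lower while Oxct1 was higher.

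Of 11 genes of the CYP4 family and omega oxidation, 8 fell and 1 rose in HCC, with a median of -1.22, beside the falls of Cyp4a1 and Cyp4a3. Cyp4f4, Cyp4f1 and Cyp4v3, fatty acid hydroxylases of the same family, fell, with differences of -2.58, -2.14 and -2.01, and the alcohol dehydrogenase Adh4 fell by 2.81 (limma adjusted p = 0.00138, 0.0201, 0.00106 and 0.00058). In hepatitis 0 of the 11 were called, with 2 at an unadjusted p under 0.05.

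Of 9 other acyl-CoA thioesterases 6 fell and 1 rose in HCC. Baat, which conjugates bile acids, fell by 2.40, Acot12 fell by 2.20 and Acot4, a peroxisomal enzyme, fell by 1.66 (limma adjusted p = 0.00632, 8.64e-05 and 0.00139). Acot3 was the only one of the 9 called in hepatitis. It rose by 0.71 there, as given above, and fell by 0.34 in HCC (adjusted p = 0.041).

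Among 13 genes of the pyruvate dehydrogenase complex and its regulators, 8 fell and 1 rose in HCC, and 2 fell at each early stage. Pdk2, the other abundant kinase of liver, fell by 2.11 in HCC (limma adjusted p = 0.00238) and differed by -1.13 in hepatitis (adjusted p = 0.159). The complex subunits Pdhb and Dld fell in HCC, with differences of -1.40 and -1.16, and the pyruvate carrier Mpc1 fell by 1.36. Pdk1 and the phosphatase Pdp2, named after their values were seen, fell in hepatitis, with differences of -0.59 (adjusted p = 0.0233) and -0.65 (adjusted p = 0.0159), where Pdk4 rose.

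The genes whose levels followed each of the 7 most closely were found as those with the smallest root mean square difference of centred log2 levels over the 12 arrays, among 2496 genes whose group means spanned at least 1. Nearest to Ehhadh were the chemokine gene Cxcl12 at 0.18 and Cyp3a18 at 0.26, and nearest to Bdh1 were Mreg at 0.17 and the mitochondrial beta-oxidation enzyme Hadh at 0.21. Cyp4a3 was closest to the glyoxylate enzyme Agxt and the sulfotransferase Sult1a1, both at 0.31. Cyp4a1 was closest to the ethanol-inducible P450 Cyp2e1 at 0.43 and to Rdh7 at 0.53. Pdk4 was closest to the phosphatase Ppm1k and to Eci2, both at 0.40. Acot1 was closest to the retinoid-binding protein gene Rbp7 at 0.60 and phospholamban (Pln) at 0.65. These 2 distances were the largest listed, but the measure is not scaled to a gene's own spread. Rbp7 and Pln also had their highest group mean in hepatitis, with differences from control of 3.21 and 2.54 there, beside 2.84 for Acot1. Ppara, whose own means spanned 0.40, was closest to Baiap2 at 0.26 and Cdc42ep4 at 0.28. Among the 7 themselves Cyp4a3 and Ehhadh were the closest pair at 0.51, ahead of Cyp4a1 and Cyp4a3 at 0.61, and Ehhadh and Acot1 were the farthest apart at 2.18.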

How the data were processed

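Single-colour Affymetrix arrays measured RNA of 12 rat tissues, 3 per group, and groups and replicate numbers follow the labels. The deposited values are linear intensities, 1 per probe set and array; MAS5 and RMA appear in the submitters' processing notes, with no role or version, so which of them made the values is unknown. The number of value columns not used is 0. Of 31099 probe sets 57 were array controls, 20826 had 1 gene, 436 several and 9780 none in the platform's annotation. Symbols were updated through RefSeq (GRCr8), which changed 0; 13 were not found.

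Values were analysed as log2(intensity + 16), which damps dim probe sets and understates their changes. Each of 14217 genes was represented by its brightest probe set on average (4525 genes had several). One fit of all 12 arrays with limma 3.58.1 (lmFit, eBayes; R 4.3.3) gave 6 contrasts, 2-sided, and calls were made at a p under 0.05 after Benjamini-Hochberg adjustment across all genes. Second and shared probe sets come from the same fit on all 31042 probe sets. The fit shares 1 spread per gene across groups. Scripts were tested on simulated data. Figures were drawn with matplotlib 3.10.9 in Python 3.11.15 (pandas 2.3.3, numpy 2.4.6).

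The genes and lists were chosen with earlier results of these data known. Named genes are the 7, up to 4 per pathway list called in a comparison with control (by largest absolute difference), and the 2 genes most like each of the 7; any other is marked as picked with its values known. Alternatives were other pseudocounts (1, 64), quantile or median scaling, a filter on the dimmest 30%, other uses of probe sets, a trended robust prior, array weights, only the 2 groups compared, a replicate block and each array left out. The labels do not say whether replicate numbers pair the arrays, and the main fit did not pair them. Marker lists described hepatocytes, cholangiocytes, Kupffer cells, stellate cells, sinusoidal endothelium, T and NK cells, adipocytes, muscle, kidney tubule and proliferation.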

Additional observations from a re-analysis of the deposited data

Results flagged for a closer look

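The stages were tested directly against each other, so that the control arrays cancel, and 11 of these tests passed (limma, adjusted p under 0.05). They are the stage contrasts given gene by gene above. Of the 7 genes 6 passed in HCC against hepatitis, 5 in HCC against cirrhosis and 0 in cirrhosis against hepatitis. Of all genes 34.9%, 37% and 0.957% were called in those comparisons. From hepatitis to HCC the difference was -4.71 for Cyp4a1, -3.55 for Cyp4a3, -3.41 for Pdk4, -3.33 for Ehhadh, -2.10 for Acot1 and -1.75 for Bdh1 (log2). From cirrhosis to HCC it was -3.83 for Ehhadh, -3.58 for Cyp4a1, -2.90 for Cyp4a3, -2.72 for Pdk4 and -2.25 for Bdh1. In 10 of these every HCC array lay below every array of the earlier stage; Acot1 was the exception, where HCC replicate 1 at 59.4 lay above hepatitis replicate 2 at 23.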

How the results depend on the processing

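Each of 42 differences was recomputed under 23 alternatives, which gave 954 values: 893 kept direction and side of the threshold, 25 lost a call, 28 gained one and 8 changed sign. Of 18 called differences 16 passed in every alternative run. Acot1 in HCC against hepatitis was lost in 14 (adjusted p = 0.059 to 0.21) and Pdk4 in cirrhosis against control in 11 (adjusted p = 0.0513 to 0.159; 0.0538 with quantile scaling). Members called in hepatitis against control numbered 1, and 2 with a pseudocount of 1 or 64, without the dimmest 30%, with all probe sets averaged or with only 2 groups in the fit, and 4 with array weights. In cirrhosis against control 1 was called, and 0 with quantile scaling, 2 with array weights and 3 with only 2 groups. In cirrhosis against hepatitis 0 were called, and 4 with array weights and 1 with only 2 groups. Pathway genes called numbered 11 in hepatitis, and 34 with array weights and 17 with 2 groups; in cirrhosis 15, and 57 and 54. With 1 array left out members called ranged over 1 to 4 (hepatitis), 0 to 2 (cirrhosis), 5 to 6 (HCC), 0 to 2 (cirrhosis against hepatitis), 5 to 6 (HCC against hepatitis) and 5 to 5 (HCC against cirrhosis), and pathway genes over 3 to 18, 1 to 20 and 94 to 108. The hepatitis count of 4 came without HCC replicate 2. Over all genes 568, 475 and 136 were called in hepatitis, in cirrhosis and in cirrhosis against hepatitis, and 2159, 3081 and 962 with array weights, 898, 2695 and 446 with 2 groups, and 180 to 1078, 97 to 886 and 39 to 333 with 1 array left out. With 2 groups the counts of 5501, 4958 and 5262 for HCC against control, hepatitis and cirrhosis became 3198, 2379 and 3492. Sign changed for Ehhadh in hepatitis (0.10 without hepatitis replicate 1; left-out arrays gave -0.37 to 0.10), for Ppara in HCC against cirrhosis (-0.13 without HCC replicate 2; -0.13 to 0.22) and for Ppara in HCC against hepatitis, at 0.01 in the fit reported: -0.02 with a pseudocount of 1 or quantile scaling, -0.03 with median scaling, and -0.04, -0.02 and -0.20 without hepatitis replicate 1, hepatitis replicate 2 and HCC replicate 2 (-0.20 to 0.14). The cause was not tested. Ppara and Acot1 were themselves among the dimmest 30%, so that filter gives no value for them, and dim signal limits both genes.

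The labels do not say whether replicate numbers pair the arrays. Deviations of same-numbered arrays correlated at -0.26 to 0.37 (median -0.01), with 3 of 18 pairs over 0.1. The highest was hepatitis 1 with HCC 1, and arrays of different numbers gave -0.32 to 0.20. Such correlations cannot settle whether arrays of 1 number were handled together. With the replicate block 0 members were called in cirrhosis against control (Pdk4 adjusted p = 0.0655), and pathway genes called were 10 in hepatitis and 7 in cirrhosis, where all genes called were 309.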

Other observations

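Cyp4a8, a further fatty acid hydroxylase of the Cyp4a cluster, was looked at after its values were seen. Its brighter probe set read 26.5, 25.9 and 31.6 in control, 10.5, 28.5 and 38.6 in hepatitis, 156, 177 and 215 in cirrhosis and 40.1, 191 and 15.4 in HCC. On that probe set the cirrhosis arrays lay above all control and hepatitis arrays, and HCC replicate 2 lay among them. The cirrhosis difference from control was 2.17 ± 0.56 on that probe set (limma adjusted p = 0.0724) and 1.76 ± 0.29 on a dimmer one (adjusted p = 0.0153, fit of all probe sets), which read 111, 102 and 143 against 21.8, 19.9 and 29.5. The dimmer one read 29, 84.1 and 25.6 in HCC, all below cirrhosis. Its difference of HCC from cirrhosis was -1.22 (limma adjusted p = 0.00948), beside -1.46 on the brighter one (adjusted p = 0.0648). In the cirrhosis arrays Cyp4a1 and Cyp4a3 differed from control by -0.34 each, and the probe set shared by Cyp4a3 and Cyp4a2 by 0.34, with all 3 cirrhosis arrays above control. None of these passed the test (limma adjusted p = 0.865, 0.64 and 0.711). Whether Cyp4a8 differed from them was not tested.

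Cidea, a lipid droplet protein and PPAR target, rose by 1.84 ± 0.28 in cirrhosis (limma adjusted p = 0.0114), from 99.3 ± 22.4 to 402 ± 118 (intensity, SD, n = 3), and was also chosen after its values were seen. Por, the reductase that feeds electrons to microsomal P450 enzymes, was chosen in the same way. It fell by 1.59 in cirrhosis (adjusted p = 0.0341) and fell by 1.77 in HCC (adjusted p = 0.00235).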
